A study of Mus musculus with 5 samples.

Results

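The 32 mitosis and G2/M genes described here encode proteins that take a cell from the close of DNA replication through chromosome segregation to cytokinesis. Among these proteins are Cdk1 and its cyclins, mitotic kinases, checkpoint and kinetochore proteins, spindle motors, and proteins that act with the anaphase-promoting complex. The genes were found by matching the Ensembl identifiers of the count table to mouse symbols. No expression threshold was used in the choice, but it was made with earlier results of these data known. All 32 were found among 39179 genes in the table, and all 32 were among the 13000 genes with enough counts to be tested. None of the 32 genes passed the test between KO and control cells, and what varied most among them was KO replicate 2, which was the lowest of the 5 libraries for 25 of the 32 genes.

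The cells were erythroid cells of mouse fetal liver at 14.5 days post conception that carried TER119, an antigen on the surface of maturing red cell precursors, and had been sorted by flow cytometry from embryos of the C57BL/6 strain. The KO embryos (2 libraries) carried Csnk2b fl/fl, floxed copies of the gene that encodes CK2 beta, the regulatory subunit of protein kinase CK2, together with a Vav-Cre transgene. The control embryos (3 libraries) carried Csnk2b +/+ with the same Vav-Cre transgene, so both groups carried Cre. The Vav1 promoter drives Cre in all blood-forming cells, so the gene could be recombined in every blood lineage and at stages before the sorted ones. Which exons are floxed is not stated in the labels. Nor do they state whether a library holds RNA of 1 embryo or of several, so p-values reflect only the spread among these libraries.

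Cdk1 bound to cyclin A or cyclin B drives entry into mitosis, and it stays inactive until CDC25 phosphatases remove inhibitory phosphates. Once chromosomes are attached to the spindle, Cdc20 and the anaphase-promoting complex mark cyclin B and securin for destruction, which starts anaphase. Erythroblasts divide rapidly while they accumulate hemoglobin and leave the cell cycle before they lose the nucleus, so mitotic transcripts are abundant in dividing precursors and decline as the cells mature.

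Most of these genes are known to be transcribed late in the cell cycle through a pair of promoter elements: the cell cycle genes homology region (CHR), bound by the MuvB core of the DREAM and B-Myb complexes, and CCAAT boxes, bound by NF-Y. RefSeq promoter windows on build GRCm38.p6, which run from 250 bases before to 50 bases after the start of transcription, were given for 26 of the 32 genes. Motifs were searched on both strands, as TTTGAA or TTCGAA for the CHR core and as CCAAT for the CCAAT box. A CHR core was found in 22 of the 26 windows (84.6%), against 13.8% of 9265 windows of tested genes. At least 1 CCAAT box was found in 22 windows (84.6%), against 39.2% of the 9265, and 15 windows (57.7%) held at least 2, against 15.5%. Both motifs stood together in 20 windows (76.9%), against 6.02%. The first base of a CHR core lay within 50 bases of the start in 21 windows (80.8%), against 3.54% of the windows of tested genes.

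Sequences are shown for the genes with the lowest and the highest fold changes among those whose RefSeq and GENCODE starts lie within 50 bases of each other, Ube2c and Mki67 at the low end and Ccnb2 and Cdc20 at the high end, because these promoters let a reader see the same elements in genes whose KO means lay on opposite sides of the control means. Each runs 5′ to 3′ on the gene's strand, from 200 bases before the RefSeq start to at most 30 bases past the earlier of the annotated starts, with CHR cores and CCAAT boxes of either strand in capitals. The Ube2c window is chr2:164769729-164769927 on the plus strand, the Mki67 window chr7:135716350-135716579 on the minus strand, the Ccnb2 window chr9:70421525-70421754 on the minus strand and the Cdc20 window chr4:118437323-118437543 on the minus strand, all in GRCm38.p6.
Ube2c: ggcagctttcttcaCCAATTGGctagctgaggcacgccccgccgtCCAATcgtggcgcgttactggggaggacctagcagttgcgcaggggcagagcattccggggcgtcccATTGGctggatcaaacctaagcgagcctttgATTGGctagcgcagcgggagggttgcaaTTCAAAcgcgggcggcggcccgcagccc
Mki67: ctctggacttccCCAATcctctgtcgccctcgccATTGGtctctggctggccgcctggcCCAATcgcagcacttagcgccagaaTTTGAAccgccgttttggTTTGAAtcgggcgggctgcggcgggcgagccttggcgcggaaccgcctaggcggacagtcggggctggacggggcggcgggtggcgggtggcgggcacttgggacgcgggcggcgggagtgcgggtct
Ccnb2: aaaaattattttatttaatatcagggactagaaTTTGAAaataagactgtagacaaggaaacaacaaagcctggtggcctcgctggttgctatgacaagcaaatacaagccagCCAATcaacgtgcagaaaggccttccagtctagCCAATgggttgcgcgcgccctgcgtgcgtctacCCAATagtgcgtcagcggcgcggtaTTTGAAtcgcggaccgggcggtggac
Cdc20: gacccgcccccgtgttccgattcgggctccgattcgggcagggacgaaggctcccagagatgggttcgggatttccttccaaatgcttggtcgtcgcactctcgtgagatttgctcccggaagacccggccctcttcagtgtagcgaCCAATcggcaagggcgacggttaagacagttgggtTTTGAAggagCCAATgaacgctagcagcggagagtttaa

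In Ube2c the stretch CCAATTGG reads as a CCAAT box on both strands. Its CHR core reads TTCAAA, which is TTTGAA on the other strand, and starts 29 bases before the RefSeq start. Cdc20 holds CCAAT boxes at 53 and 8 bases before the start with a CHR core between them, 18 bases before it. Ccnb2 holds 3 CCAAT boxes at 87, 54 and 21 bases before the start, and a CHR core 5 bases after it, beside another CHR core 167 bases before it. A match of these letters is a description of the window and does not show that a factor binds there. The 22 genes with a CHR core had a median log2 fold change of -0.06. Both KO libraries lay below all controls for 7 of them and above for 4, beside 19.3% and 21.9% of all genes tested. The 4 genes whose window held none, Nusap1, Cenpe, Mad2l1 and Ccnb1, had a median of -0.17, with 2 below and none above. A link between the CHR core and the fold change was not tested.

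Csnk2b, the targeted gene, had 112 and 95.6 CPM (counts scaled to library size) in KO replicates 1 and 2, against 186, 186 and 169 CPM in control replicates 1, 2 and 3. Both KO libraries lay below all controls, and Csnk2b fell to 0.574 of the control level (log2 fold change -0.80 ± 0.09 SE, edgeR adjusted p = 0.0018). The counts cover the whole gene, exons outside a deleted part included.

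Totals were 13187094 and 14986630 counts in the KO libraries and 13543392 to 15366021 in the control libraries. The correlation of log2 CPM across genes was 0.9907 for the pair of KO libraries and 0.995 to 0.9958 for pairs of controls, so the KO libraries stood further apart from each other than the controls did. The cells expressed erythroid genes strongly: a list of 14 late erythroid genes summed to 88284 and 68715 CPM in KO replicates 1 and 2, against 77696, 94431 and 81834 CPM in the controls. Counts of the 32 genes were at least 725 in every library, and their levels ran from 48.21 to 7495 CPM. The spread between controls was small, with a median coefficient of variation of 3.45% over the 32 genes, against 3.96% over the 3601 genes tested that were at least as abundant.

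Levels were compared between genes per kilobase of merged exons, and the order can shift with the length used. Merged exons of Top2a span 9013 bp and its longest transcript 5221 nt, while for Ccnb2 both are 1531. On this scale Mki67 was the most abundant of the 32, at 599 CPM per kb in KO cells and 722 CPM per kb in control cells. Cdc25b followed at 389 CPM per kb in KO and 369.6 CPM per kb in control cells, then Ccnb2 at 233 and 205 CPM per kb and Ccna2 at 162 and 188 CPM per kb in KO and control cells. The lowest levels were those of Cdc25c, Ttk and Mad2l1, each between 9.78 and 12.2 CPM per kb in either group. The median over the 32 genes was 60.54 CPM per kb in the controls.

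**Figure D1:**
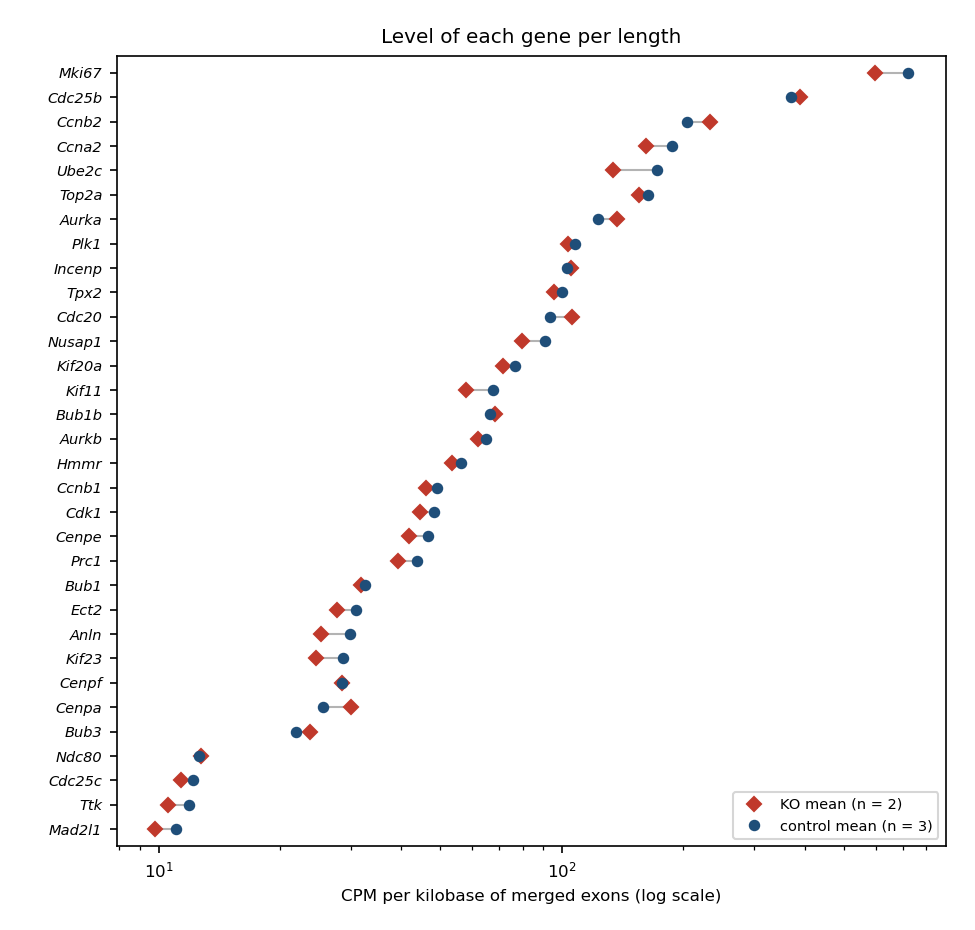
Mean level of each of the 32 genes in CPM per kilobase of merged exons on a log scale, with KO means (2 libraries) as diamonds and control means (3 libraries) as circles. The genes span from 9.78 to 722 CPM per kb, and the KO means are 77.5% to 118% of the control means.

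The comparison of KO with control cells asked whether transcripts of mitosis and G2/M differed in cells with reduced Csnk2b. In edgeR 0 of the 32 genes passed at an adjusted p below 0.05, while 6.98% of all 13000 genes tested passed, 5.15% as higher and 1.83% as lower in KO. At an unadjusted p below 0.05 there were 8 of the 32, 6 lower and 2 higher, beside 23.8% of all genes. Fold changes were below 1 for 22 of the 32 genes, and their median log2 fold change was -0.08, against 0.01 over all genes tested. All 32 intervals (95%) lay within 1 of 0 on the log2 scale, which is a 2-fold difference, and 30 lay within 0.5; standard errors ran from 0.0664 to 0.151. Bulk RNA cannot tell fewer cells of a kind from less RNA per cell, and this holds for every value below.

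Both KO libraries lay below all controls for 11 of the 32 genes, beside 19.3% of all genes tested. They lay above all controls for 4 genes, Ccnb2, Aurka, Bub1b and Cenpa, beside 21.9% of all genes. On 1 side or the other there were thus 15 of the 32, beside 41.2% of all genes, and for the other 17 the groups overlapped.

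**Figure D2:**
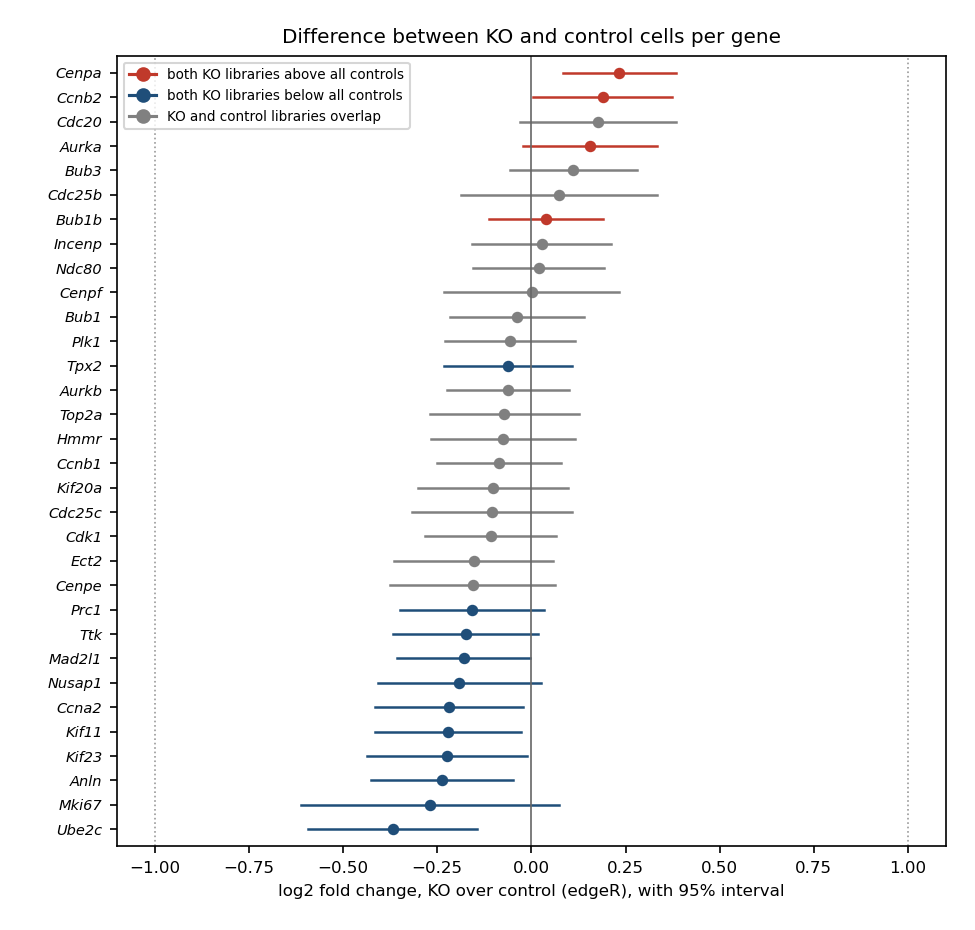
Log2 fold change of KO over control from edgeR for each of the 32 genes with its 95% interval, coloured by whether both KO libraries lay above, below or among the controls. Dotted lines mark a 2-fold difference in either direction; every interval lies between them, and the intervals of Ube2c and Mki67 reach furthest down, to -0.59 and -0.61.

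At the median of the 32 genes, the KO libraries differed from each other more than the group means did. KO replicate 2 was lower than KO replicate 1 for 29 of the 32 genes, against 49.4% of all genes tested, and its level was 88.0% of that in KO replicate 1 at the median, with a range of 71.6% to 104%. Aurka, Bub1b and Bub3 were the 3 genes that were not lower in it. KO replicate 2 was the lowest of the 5 libraries for 25 of the 32 genes, against 28.9% of all genes tested. KO replicate 1 was the lowest for none of them and the highest for 8, and the shares of all genes for these counts are not given here.

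KO replicate 1 lay below all controls for 11 genes, above them for 10 and among them for 11. KO replicate 2 lay below all controls for 25 genes, above them for 5 and among them for 2. Over all genes tested, KO replicate 1 lay below all controls for 30.4% and KO replicate 2 for 33.9%. Shares of all genes above or among the controls are not given here for single KO libraries. The counts above and among the controls therefore cannot be set against all genes. The median log2 ratio of KO replicate 2 to KO replicate 1 was -0.18 over the 32 genes, 0.0041 over all genes and -0.05 over the 3601 genes at least as abundant. Between pairs of controls the median over the 32 genes lay between -0.02 and -0.0028, with 17 or 18 of the 32 genes lower in the library with the larger number.

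**Figure D3:**
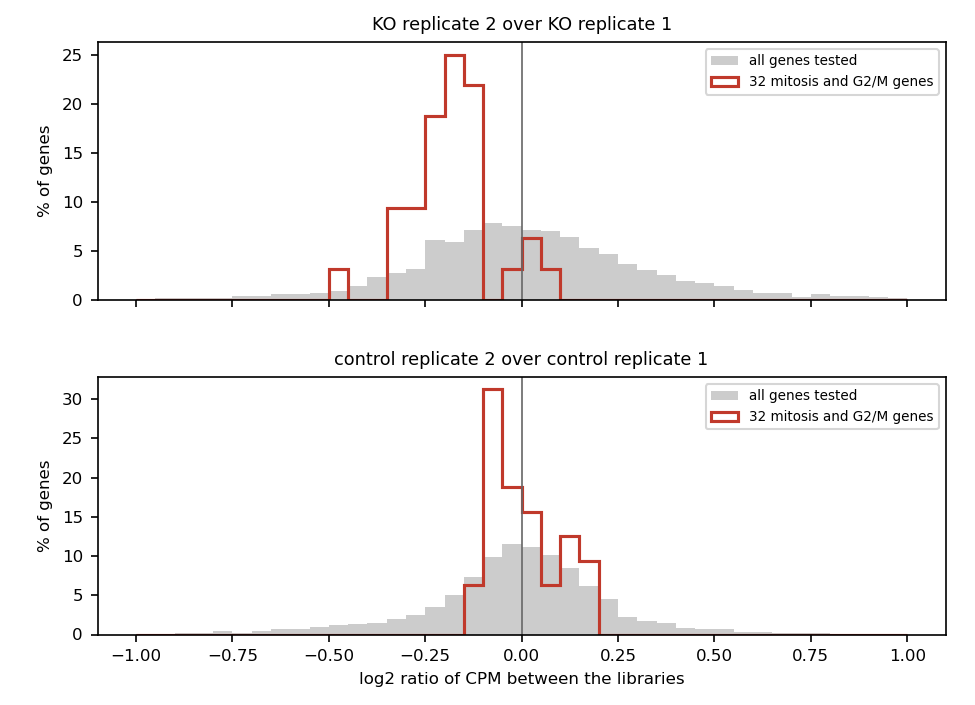
Distribution of log2 ratios of CPM between a pair of libraries of one group, as percent of genes, for the 32 genes (outline) and all genes tested (filled). In the upper panel, KO replicate 2 over KO replicate 1, 29 of the 32 genes lie below 0; in the lower panel, control replicate 2 over control replicate 1, 18 of the 32 do.

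Results for the 32 genes depended on which KO library was used. Without KO replicate 1, 14 of the 32 genes passed and all 14 were lower: Anln, Ccna2, Cdk1, Cenpe, Ect2, Kif11, Kif20a, Kif23, Mad2l1, Mki67, Nusap1, Prc1, Ttk and Ube2c, with edgeR adjusted p-values from 0.00355 to 0.0495. In that fit 22.0% of all genes passed and 9.28% passed as lower. Without KO replicate 2, 0 of the 32 passed in edgeR, 4 had an unadjusted p below 0.05, and 4.79% of all genes passed. Each of these fits has a lone KO library, which is assumed to vary like the controls.

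Summed over the 32 genes, CPM came to 18293 and 14925 in KO replicates 1 and 2, against 18521, 18282 and 18114 in control replicates 1, 2 and 3. This gave 16609 CPM ± 2382 (SD, n = 2) in KO cells and 18305 CPM ± 204 (SD, n = 3) in control cells. Mki67 and Top2a made up much of the sum, and without these genes it was 9817 and 8545 CPM in the KO libraries, against 9521, 9641 and 9555 CPM in the controls. KO replicate 1 lay among the controls on the full sum and above them on the reduced one, and KO replicate 2 lay below all of them on both.

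**Figure D4:**
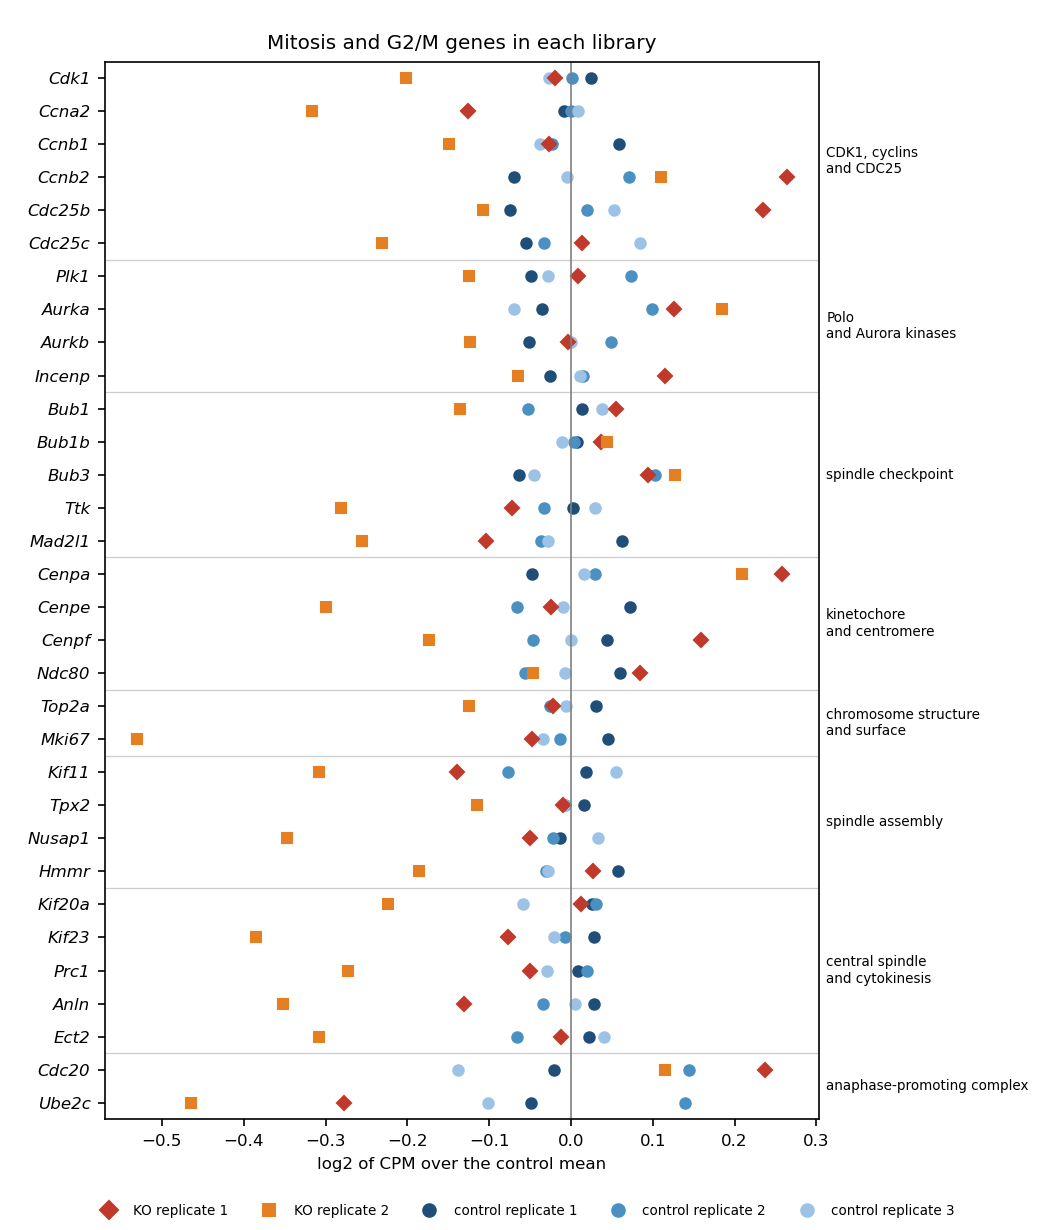
Log2 of CPM over the control mean for each of the 32 genes in every library, grouped by role, with KO replicate 1 as red diamonds, KO replicate 2 as orange squares and the controls as blue circles. KO replicate 2 is the leftmost mark for 25 genes, and KO replicate 1 is spread on both sides of the controls.

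Cdk1, its cyclins and the CDC25 phosphatases came first by role. Ccna2, cyclin A2, which partners Cdk1 and Cdk2 in S phase and G2, had 703 and 616 CPM in KO replicates 1 and 2, against 763, 767 and 772 CPM in the controls. Both KO libraries lay below a narrow band of controls, with 659.7 CPM ± 61.7 (SD, n = 2) in KO and 767 CPM ± 4.60 (SD, n = 3) in control cells, but the difference did not pass (log2 fold change -0.22 ± 0.09 SE, edgeR adjusted p = 0.167). Cdc25b, a phosphatase that activates Cdk1 at the onset of mitosis, had 1621 and 1279 CPM in the KO libraries, against 1308, 1397 and 1429 CPM in the controls. KO replicate 1 was the highest and KO replicate 2 the lowest of the 5 libraries, so the KO libraries enclosed the controls (log2 fold change 0.07 ± 0.11 SE, edgeR adjusted p = 0.742).

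Cyclin B2 lay on the other side from cyclin A2. Ccnb2 had 376 and 338 CPM in the KO libraries, against 298, 329 and 312 CPM in the controls, and both KO libraries lay above all controls (log2 fold change 0.19 ± 0.08 SE, edgeR adjusted p = 0.201). Ccnb1, cyclin B1, had 203 and 186 CPM in KO, against 215, 203 and 201 CPM in the controls, and the groups overlapped. Cdk1 itself, the kinase these cyclins activate, averaged 220.1 CPM ± 19.54 (SD, n = 2) in KO and 237 CPM ± 4.14 (SD, n = 3) in control cells, and Cdc25c, another activating phosphatase, 55.8 CPM ± 6.67 and 59.9 CPM ± 3.17 in KO and control cells. KO replicate 2 was the lowest library for Cdk1, Ccnb1 and Cdc25c, while KO replicate 1 lay among the controls for all 3. All 6 genes of this role were lower in KO replicate 2 than in KO replicate 1.

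Among the Polo and Aurora kinases, Aurka, the Aurora A kinase of centrosomes and spindle poles, had 339 and 354 CPM in the KO libraries, against 304, 333 and 296 CPM in the controls. In KO the libraries lay above all controls, by little over control replicate 2 (log2 fold change 0.16 ± 0.08 SE, edgeR adjusted p = 0.270). Plk1, the Polo-like kinase of mitotic entry and spindle assembly, averaged 227 CPM ± 14.9 (SD, n = 2) in KO and 237 CPM ± 10.9 (SD, n = 3) in control cells. Aurkb, the Aurora B kinase that corrects faulty attachments of chromosomes, and Incenp, which anchors Aurora B in the chromosomal passenger complex, had log2 fold changes of -0.06 and 0.03. Groups overlapped for Plk1, Aurkb and Incenp, and KO replicate 2 was the lowest library for all 3.

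The spindle checkpoint delays anaphase until every kinetochore is attached. Bub1b, which encodes the checkpoint protein BubR1, had 291 and 293 CPM in the KO libraries, against 285, 285 and 282 CPM in the controls. All 5 libraries lay close together, with the KO libraries just above the controls (log2 fold change 0.04 ± 0.07 SE, 95% interval -0.11 to 0.19, edgeR adjusted p = 0.761). Mad2l1, for the Mad2 protein that holds Cdc20 inactive, had 86.4 and 77.8 CPM in KO, against 97.0, 90.6 and 91.1 CPM in the controls. Its level was below all controls in both KO libraries, and the difference did not pass (log2 fold change -0.18 ± 0.08 SE, edgeR adjusted p = 0.205). Ttk, the Mps1 kinase that starts checkpoint signalling, was also below all controls in both KO libraries, with 52.0 CPM ± 5.31 (SD, n = 2) in KO and 58.6 CPM ± 1.27 (SD, n = 3) in control cells. Bub1, a checkpoint kinase of the kinetochore, and Bub3, which brings Bub1 and BubR1 there, had log2 fold changes of -0.04 and 0.11 with overlapping groups.

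At the kinetochore and centromere, Cenpa, the histone H3 variant that marks centromeres, had 179 and 173 CPM in the KO libraries, against 145, 153 and 151 CPM in the controls. Both KO libraries lay clearly above all controls and close to each other. The mean was 176 CPM ± 4.23 (SD, n = 2) in KO and 149.6 CPM ± 4.26 (SD, n = 3) in control cells, and the difference just missed the threshold (log2 fold change 0.23 ± 0.07 SE, 95% interval 0.08 to 0.38, edgeR adjusted p = 0.0691). It passed when libraries were scaled by their totals alone (edgeR adjusted p = 0.0453; 0.0453 to 0.239 over all alternatives).

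Cenpe, a kinesin that moves chromosomes to the spindle equator, had 395 and 326 CPM in the KO libraries, against 422, 384 and 399 CPM in the controls. KO replicate 1 lay among the controls and KO replicate 2 below all of them (log2 fold change -0.16 ± 0.10 SE, edgeR adjusted p = 0.366). Cenpf, a large protein of the outer kinetochore, had 490 and 389 CPM in KO, against 453, 425 and 440 CPM in the controls. The KO libraries again enclosed the controls, KO replicate 1 above and KO replicate 2 below, so that the means were 440 CPM ± 71.4 (SD, n = 2) in KO and 439 CPM ± 13.9 (SD, n = 3) in control cells, and the log2 fold change of 0.0014 (95% interval -0.23 to 0.23) describes neither KO library. Ndc80, of the complex that grips microtubules, had a log2 fold change of 0.02 with overlapping groups.

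Mki67 encodes Ki-67, the protein that coats mitotic chromosomes and is widely used as a marker of proliferation. It had 7026 and 5029 CPM in KO replicates 1 and 2, against 7495, 7195 and 7092 CPM in the controls. KO replicate 1 lay just under the lowest control, whereas KO replicate 2 lay far under all other libraries at 71.6% of KO replicate 1, the widest gap between the KO libraries among the 32 genes. The difference between the groups did not pass (log2 fold change -0.27 ± 0.15 SE, 95% interval -0.61 to 0.07, edgeR adjusted p = 0.320). Top2a, the topoisomerase that untangles sister chromatids, had 1450.3 and 1350.3 CPM in KO, against 1504, 1446 and 1467 CPM in the controls, with KO replicate 1 among the controls and KO replicate 2 below them.

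Of the 4 spindle assembly genes, 3 lay below all controls in both KO libraries, beside 19.3% of all genes tested. Kif11, the kinesin that pushes spindle poles apart, had 456 and 406 CPM in the KO libraries, against 509, 476 and 522 CPM in the controls (log2 fold change -0.22 ± 0.09 SE, edgeR adjusted p = 0.158). Tpx2, which activates Aurora A on spindle microtubules, had 464 and 432 CPM in KO, against 473, 465 and 465 CPM in the controls, and KO replicate 1 was separated from the nearest control by under 1 CPM (log2 fold change -0.06 ± 0.07 SE, edgeR adjusted p = 0.665). Nusap1, which binds and stabilises spindle microtubules near chromosomes, had 356 and 290.0 CPM in KO, against 366, 363 and 378 CPM in the controls. KO replicate 2 lay further down, at 81.4% of KO replicate 1 (log2 fold change -0.19 ± 0.10 SE, edgeR adjusted p = 0.264). Hmmr, a spindle pole protein, had a log2 fold change of -0.08 with overlapping groups.

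All 5 genes of the central spindle and cytokinesis had a fold change below 1. Of these, 3, Kif23, Prc1 and Anln, lay below all controls in both KO libraries, beside 19.3% of all genes tested. Anln, the contractile ring scaffold anillin, had 247 and 212 CPM in the KO libraries, against 276, 264 and 272 CPM in the controls. Its log2 fold change was -0.24 ± 0.08 SE with a 95% interval of -0.42 to -0.05 (edgeR adjusted p = 0.121). Kif23, the kinesin of the centralspindlin complex, had 215 and 173 CPM in KO, against 231, 225 and 223 CPM in the controls, and KO replicate 2 stood well apart from the other 4 libraries (log2 fold change -0.22 ± 0.09 SE, edgeR adjusted p = 0.187).

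Kif20a, a kinesin that carries the passenger complex to the central spindle, had 335 and 284 CPM in the KO libraries, against 338, 339 and 319 CPM in the controls. KO replicate 1 lay among the controls and KO replicate 2 below them (log2 fold change -0.10 ± 0.09 SE, edgeR adjusted p = 0.525). Prc1, which bundles the microtubules of the central spindle, averaged 323 CPM ± 35.1 (SD, n = 2) in KO and 360 CPM ± 6.31 (SD, n = 3) in control cells. Ect2, the exchange factor that turns on RhoA at the cleavage site, averaged 149 CPM ± 21.6 and 166 CPM ± 6.51 in KO and control cells, with KO replicate 1 among the controls.

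The pair of genes that act with the anaphase-promoting complex lay on opposite sides. Ube2c, the ubiquitin-conjugating enzyme that works with the complex, had 370.0 and 325 CPM in the KO libraries, against 434, 494 and 418 CPM in the controls. Both KO libraries lay below all controls, at 348 CPM ± 31.7 (SD, n = 2) in KO and 449 CPM ± 40.0 (SD, n = 3) in control cells, 77.5% of the control level. Its log2 fold change of -0.37 ± 0.10 SE (95% interval -0.59 to -0.14) was the furthest from 0 among the 32 genes and missed the threshold (edgeR adjusted p = 0.0587). With DESeq2 it passed (adjusted p = 0.00708) as the 1 gene of the 32 to do so, beside 2.22% of all genes called lower. With libraries scaled by their totals alone it passed together with Cenpa (edgeR adjusted p = 0.0382 for Ube2c), beside 7.32% of all genes called, and over all alternatives its adjusted p ranged from 0.00708 to 0.188. Cdc20, the activator of the complex in metaphase, had 206 and 189 CPM in KO, against 172, 193 and 159 CPM in the controls, and the groups overlapped (log2 fold change 0.18 ± 0.09 SE, edgeR adjusted p = 0.278).

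Exons of some of these genes overlap a gene on the opposite strand, and the sources used here do not give the strand setting of the counting. Spef1, which overlaps Cdc25b by 92 bp, rose by 0.48 ± 0.09 SE on the log2 scale (edgeR adjusted p = 0.0147) with at most 39.2 CPM in any library, against at least 1279 CPM for Cdc25b. The longest overlap was that of Kif20a with Cdc23, at 1271 bp. Prc1 followed at 911 bp, summed over its partners Rccd1 and 6330403N20Rik. Neither Cdc23 nor Rccd1 passed, and 6330403N20Rik was at 0 CPM in every library. Tnnc2, which overlaps Ube2c by 592 bp, had at most 0.193 CPM in any library.

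Other genes of the same pathways were described from lists by role. Of 17 regulators of G2/M transcription, subunits of the DREAM and MuvB complexes, NF-Y and Foxm1 among them, 0 passed in edgeR. Of all genes tested 6.98% passed. An unadjusted p below 0.05 was found for 7 of the 17, beside 23.8% of all genes tested. Both KO libraries lay below all controls for 10 and above them for none, beside 19.3% and 21.9% of all genes tested. Foxm1, the transcription factor that with B-Myb switches on mitotic genes, had 242 and 206 CPM in the KO libraries, against 196, 206 and 225 CPM in the controls, with overlapping groups. Mybl2, which encodes B-Myb, had 246 and 230.4 CPM in KO, against 260.4, 288 and 276 CPM in the controls, below all of them (log2 fold change -0.21 ± 0.08 SE, edgeR adjusted p = 0.138). E2f4, the E2F factor of the DREAM complex, had 717 and 697 CPM in KO, against 774, 879 and 838 CPM in the controls, and Tfdp2, an E2F partner, 638 and 519 CPM in KO, against 731, 750.3 and 755 CPM in the controls. Both lay below all controls without passing, with Tfdp2 at an edgeR adjusted p of 0.0615, which was 0.0057 with DESeq2 and ranged from 0.00215 to 0.201 over all alternatives.

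Among 16 tested regulators of mitotic entry, 1 rose and 1 fell, beside 5.15% and 1.83% of all genes tested. Pttg1, which encodes securin, the protein destroyed at anaphase, had 21.6 and 21.6 CPM in the KO libraries, against 13.4, 15.6 and 14.3 CPM in the controls, and rose with both KO libraries above all controls (log2 fold change 0.58 ± 0.10 SE, edgeR adjusted p = 0.0136). Cks2, a small subunit that binds Cdk1, had 14.1 and 13.1 CPM in KO, against 22.4, 20.4 and 18.2 CPM in the controls, and fell with both KO libraries below them (log2 fold change -0.58 ± 0.12 SE, edgeR adjusted p = 0.0228). Pttg1 missed the threshold without control replicate 1 or 3 (edgeR adjusted p up to 0.0809), and Cks2 did so with no filter on low counts and without control replicate 1, control replicate 2 or KO replicate 2 (edgeR adjusted p at most 0.113). Among 32 spindle motors and centrosome genes 1 rose, beside 5.15% of all genes. Psrc1, a microtubule-binding protein of the spindle, had 74.6 and 64.5 CPM in KO, against 38.6, 40.5 and 39.2 CPM in the controls, a 1.76-fold rise (edgeR adjusted p = 0.0014) that passed under all alternatives.

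In 4 further lists no gene passed in edgeR, beside 6.98% of all genes tested. An unadjusted p below 0.05 was found for 23.8% of all genes tested. Of 39 passenger complex and kinetochore genes 6 had an unadjusted p below 0.05, of 23 condensin and cohesin genes 3, of 13 partners in cytokinesis 1, and of 17 subunits and regulators of the anaphase-promoting complex 1. Their median log2 fold changes were -0.05, -0.11, -0.02 and -0.04 in that order, against 0.01 over all genes. Hjurp, the chaperone that deposits Cenpa at centromeres, had 416 and 379.7 CPM in the KO libraries, against 352, 353 and 354 CPM in the controls, above all of them as Cenpa was (log2 fold change 0.17 ± 0.07 SE, edgeR adjusted p = 0.203). Kntc1, a kinetochore protein of the checkpoint, had 311 and 270.2 CPM in KO, against 326, 320.2 and 339.8 CPM in the controls, and lay below all of them (log2 fold change -0.18). Rad21, the cohesin subunit that separase cuts, had 755 and 639 CPM in KO, against 765, 765 and 791 CPM in the controls, also below all of them (log2 fold change -0.15). For Ncapd2 of condensin, Racgap1 and Cit of cytokinesis, and Anapc1 and Anapc5 of the anaphase-promoting complex, groups overlapped and log2 fold changes lay between -0.11 and 0.0047.

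Genes that hold back entry into mitosis included 3 that rose. Of 15 tested inhibitors, 3 rose and 0 fell in edgeR, beside 5.15% and 1.83% of all genes tested. The median log2 fold change was 0.22, against 0.01 over all genes, and 5 had an unadjusted p below 0.05, beside 23.8% of all genes. By library, the median log2 of CPM over the control mean was 0.17 in KO replicate 1 and 0.02 in KO replicate 2. For 9 of the 15 the groups overlapped. Cdkn1a, for the p21 inhibitor of cyclin-dependent kinases, had 87.6 and 67.9 CPM in the KO libraries, against 4.57, 4.65 and 5.62 CPM in the controls, a 15.7-fold rise (edgeR adjusted p = 2.1e-06). Ccng1, cyclin G1, had 111 and 108 CPM in KO, against 77.0, 75.0 and 74.6 CPM in the controls, and rose by 0.54 ± 0.07 SE on the log2 scale (edgeR adjusted p = 0.0027). Gadd45a, whose product can inhibit the Cdk1 and cyclin B1 complex, had 231 and 249 CPM in KO, against 156, 166 and 165 CPM in the controls, and rose by 0.56 ± 0.07 SE (edgeR adjusted p = 0.0027). All 3 lay above all controls in both KO libraries and passed under all alternatives.

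The 30 DNA replication and G1/S genes, transcribed earlier in the cycle, offer a nearby comparison. Of these, 0 rose and 1 fell, beside 5.15% and 1.83% of all genes tested. Their median log2 fold change was -0.15, against 0.01 over all genes, and both KO libraries lay below all controls for 20 of them, beside 19.3% of all genes. Tyms, thymidylate synthase, had 123 and 114 CPM in the KO libraries, against 147, 149.9 and 141 CPM in the controls, and fell by 0.30 ± 0.07 SE on the log2 scale (edgeR adjusted p = 0.0401). That call was lost without any 1 control, without KO replicate 2, with no filter on low counts and with the replicate number as a block (edgeR adjusted p up to 0.153). KO replicate 2 was below KO replicate 1 for 21 of the 30 genes, with a median log2 ratio of -0.06, where the 32 mitosis and G2/M genes had -0.18. Other mitotic lists also had lower levels in KO replicate 2 than in KO replicate 1. The median log2 ratio was -0.18 for the regulators of G2/M transcription (16 of 17 genes below 0), -0.16 for spindle motors and centrosome genes (24 of 32), -0.15 for condensin and cohesin genes (20 of 23) and -0.13 for cytokinesis partners (10 of 13). It was -0.12 for inhibitors of G2/M entry (10 of 15), -0.07 for passenger complex and kinetochore genes (26 of 39), -0.07 for subunits and regulators of the anaphase-promoting complex (11 of 17) and -0.06 for regulators of mitotic entry (9 of 16). Differences between these lists were not tested. CHR cores were found in 6 of 23 windows of the replication genes (26.1%) and in 53 of 119 windows of the other mitotic genes (44.5%).

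**Figure D5:**
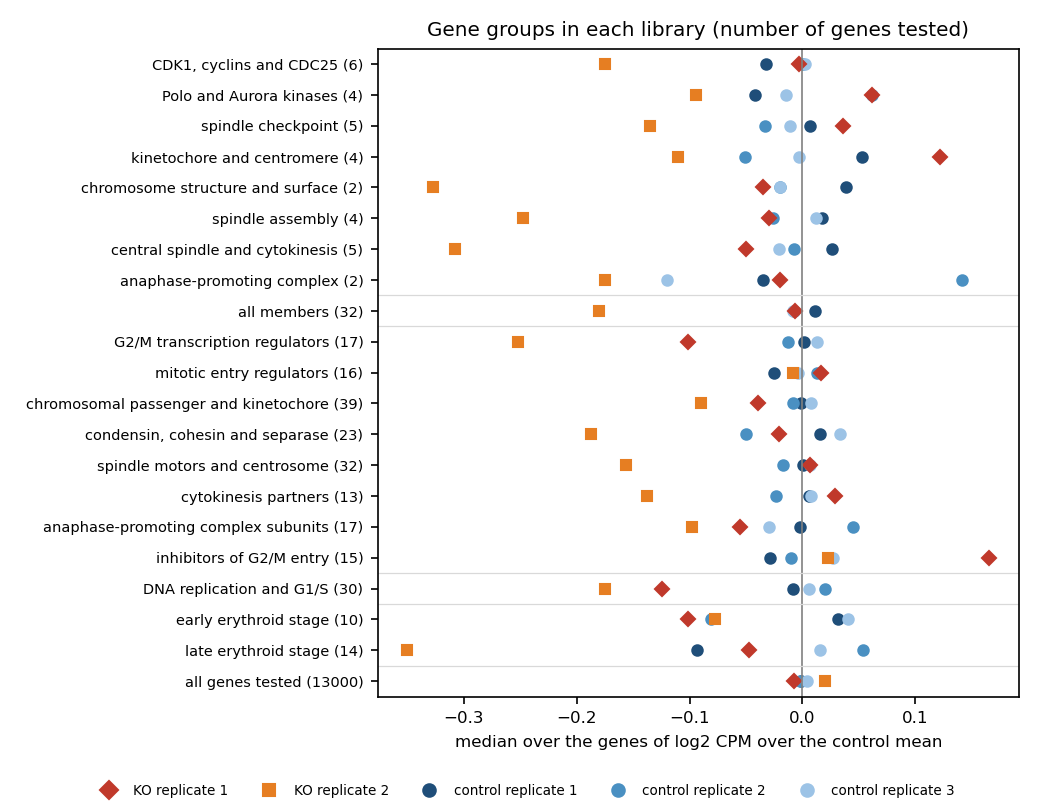
Median over the genes of each list of log2 CPM over the control mean, in each library, for the 8 roles of the 32 genes, the other lists and all genes tested, with the number of genes in parentheses. KO replicate 2 (orange squares) is the lowest mark for each of the 8 roles, and KO replicate 1 (red diamonds) lies to the left of the controls for some roles and lists and to the right of them for others.

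Markers of erythroid stage and of other cells varied between libraries as well. All 14 late erythroid genes were lower in KO replicate 2 than in KO replicate 1, with a median log2 ratio of -0.31, and 1 of them, Xpo7, fell in KO cells, beside 1.83% of all genes tested (log2 fold change -0.48 ± 0.12 SE, edgeR adjusted p = 0.0466). Of 10 early erythroid genes 5 were lower in KO replicate 2 than in KO replicate 1, with a median of -0.01. In edgeR 0 of the 10 passed, beside 6.98% of all genes tested, and 5 had an unadjusted p below 0.05, beside 23.8%. The early genes summed to 4062 and 3527 CPM in KO replicates 1 and 2, against 4760, 4498 and 4662 CPM in the controls. Both KO libraries thus lay below all controls on this sum. Both KO libraries lay below all controls for 7 of the 14 late genes and above them for 0, beside 19.3% and 21.9% of all genes tested. For the 10 early genes these counts were 4 and 1. Median log2 fold changes were -0.16 for the late and -0.09 for the early genes, against 0.01 over all genes. KO replicate 2, the lowest library for 25 of the 32 genes, also had the lowest summed CPM of the late and of the early erythroid genes. The part of erythroid stage in the values of the 32 genes was not tested.

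Of 12 macrophage markers 5 fell and 0 rose in KO cells, beside 1.83% and 5.15% of all genes tested, and their sum was 155 to 188 CPM in KO, against 218 to 250.01 CPM in control libraries. Sums of 10 hepatocyte markers were 268 to 320.5 CPM in KO and 227 to 361 CPM in control libraries, and of 10 tested granulocyte and mast cell markers 628 to 745 CPM and 545 to 781 CPM in KO and control libraries. Sums of 6 tested megakaryocyte markers were 119.9 to 157 CPM in KO and 109 to 116 CPM in control libraries. No gene of these 3 lists passed in edgeR, beside 6.98% of all genes tested. In the same order 0, 1 and 3 had an unadjusted p below 0.05, beside 23.8% of all genes. Of 8 tested endothelial and stellate markers 2 rose, Col1a1 and Reln, beside 5.15% of all genes, with sums of 114 to 146 CPM in KO and 89.5 to 101 CPM in control libraries. The 5 tested lymphoid markers summed to 13.5 to 15.3 CPM in KO and 15.1 to 19.4 CPM in control libraries, none had an unadjusted p below 0.05, and Cd3e was at 0 in every library. The part of these cells in the values of the 32 genes was not tested.

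Transcript length and base composition also moved with the ratio between the KO libraries, and base composition moved with the fold change of KO over control. Across 12877 genes tested with an annotated transcript, the log2 ratio of KO replicate 2 to KO replicate 1 had a Spearman correlation of -0.191 with transcript length and of 0.224 with GC content, and across the 32 genes of -0.23 and 0.338, as descriptions across genes that share the same 2 libraries. For the log2 fold change of KO over control, the Spearman correlation across genes tested was -0.0464 with transcript length and 0.277 with GC content. Across the 32 genes it was -0.288 and 0.409. The part of length and GC content in the fold changes was not tested. The 32 genes had a median transcript length of 3656 nt and 46.2% GC, against 3168 nt and 49.6% over all genes tested. After a quadratic trend in length and GC was taken out, the median log2 ratio of the 32 genes was -0.17, against -0.0089 over all genes, and 29 of the 32 were below 0. After the same step, which was chosen with the data seen, the median log2 fold change of KO over control was -0.12, against -0.05 over all genes.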

How the data were processed

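Cells labelled with a FITC-conjugated TER119 antibody had been sorted on a FACS Aria, per the labels' protocols, and their RNA was isolated with RNeasy, enriched for mRNA on beads, built into Ion Total RNA-Seq kit libraries and sequenced on an Ion Proton. The submitters' processing notes name cutadapt, STAR, Bowtie and HTSeq with build mm10, and the sources used here do not give versions, settings or strand use. The table deposited by the authors holds whole-number counts per Ensembl gene, 1 column per library, not normalised. Of 39179 identifiers, 37693 matched GENCODE M21 (GRCm38, the assembly of mm10), and the rest held 0.365% to 0.388% of counts. Libraries were grouped by title and genotype, and at 13.01 to 15.54 counts per CPM each of the 32 genes had at least 725 counts in every library. Without molecular identifiers, reads may be copies of one molecule.

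Counts were tested by the quasi-likelihood test of edgeR 4.0.16 (R 4.3.3), with TMM scaling (factors 0.9698 to 1.031), filterByExpr at a minimum count of 10 and the group as the only term. P-values were adjusted by Benjamini-Hochberg over the 13000 genes kept, at a threshold of 0.05, and as 3 residual degrees of freedom remained, information on the spread was shared across genes. That spread, as a common biological coefficient of variation, was 8.67%. CPM are counts scaled to the TMM library size. Standard errors and 95% intervals come from the fold change and the test statistic. The main fit was also run on simulated counts with known changes, and the share recovered is not given here. The 32 genes, the other lists and the tests were chosen with earlier results of these data known, so no p is given over a list.

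Values in every library are given, within each role, for the gene with the highest level per length and the gene with the largest fold change, and for the 5 genes with the largest difference between the KO libraries; in other lists for up to 3 genes past the threshold by smallest p, or else, with a few given by their range, the 2 with the highest counts; and for Csnk2b, Cdkn1a, Foxm1 and Mybl2. Ccnb1, Ccnb2, Cdc20 and Top2a were added after their values were seen. The alternatives were RLE scaling, library totals, DESeq2 1.42.0, limma-voom (limma 3.58.1), no filter, at least 5 CPM in 2 libraries, the replicate number as a block and each library left out. RefSeq promoter windows were read as the first window listed for a gene. Windows of Incenp, Aurkb, Ccna2, Tpx2, Kif20a and Cdc25c were not used here.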

Additional observations from a re-analysis of the deposited data

How the results depend on the processing

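Across the alternatives 24 gene values changed sign, none of them past the threshold, 23 moved past the threshold, 12 lost it and 565 kept direction and call. The genes called numbered 907, 288 with no filter on low counts and 241 to 2956 with 1 library left out. Of the 32 mitosis and G2/M genes 0 were called, 2 with library totals and 1 with DESeq2, and 0 to 14 with 1 library left out, where the median log2 fold change ran from -0.20 to -0.011. The only fit of these to call more than 2 was that without KO replicate 1, and the fits without a KO library assume that the lone one varies like the controls. Leaving out Mki67 and Top2a took the summed CPM to 9181 in KO and 9572 in control cells. The cause of these shifts was not tested.

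Replicate numbers are shared by titles only, and deviations of same-numbered libraries correlated at 0.00161 for number 1 and 0.0421 for number 2. With 2 KO libraries, the deviations of each from their mean mirror those of the other. These correlations therefore cannot show whether the numbers pair the samples. With the replicate number as a block 873 genes (6.72% of those tested) and 0 of the 32 were called. The median log2 fold change of the 32 was then -0.08.

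The log2 fold changes that changed sign were as follows. Cenpf was at -0.0072 with RLE scaling, -0.0072 with DESeq2, -0.0059 with limma-voom, -0.00063 with no filter, -0.0045 with at least 5 CPM and -0.0065 with the replicate block. Anapc1 was at -0.0048 with RLE scaling, -0.0049 with DESeq2 and -0.0017 with at least 5 CPM, and Racgap1 at 0.011 with library totals. With 1 library left out, values ran from -0.20 to 0.15 for Cenpf, -0.069 to 0.080 for Ndc80, -0.13 to 0.23 for Cdc25b, -0.087 to 0.11 for Incenp and -0.070 to 0.051 for Anapc1. They ran from -0.042 to 0.21 for Foxm1, -0.25 to 0.0098 for Cdc25c, -0.15 to 0.0045 for Plk1, -0.16 to 0.051 for Bub1, -0.21 to 0.023 for Hmmr, -0.25 to 0.0075 for Kif20a and -0.16 to 0.11 for Racgap1.

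With 2 KO libraries, 95% intervals reached 0.15 to 0.343 to either side on the log2 scale. Smaller differences in these genes could be missed, and so could larger ones, as an interval that excluded 0 did not ensure a pass. Ube2c, with a log2 fold change of -0.37 (95% interval -0.59 to -0.14), had an edgeR adjusted p of 0.0587. Cenpa, with 0.23 (95% interval 0.08 to 0.38), had an edgeR adjusted p of 0.0691.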
